A study of Triticum aestivum with 8 samples.

Results

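Homoeologous group 5 of bread wheat consists of chromosomes 5A, 5B and 5D, the counterparts of one ancestral chromosome in the A, B and D subgenomes. Its members here are all peaks of accessible chromatin whose chromosome is 5A, 5B or 5D, a rule that uses no measured value. They number 75164 of the 496486 peaks of the 4 deposited lists, or 15.1%. The leaf list holds 18791 of them, the root list 17863, the shoot apex list 20047 and the axillary bud list 18463, which is between 14.96% and 15.3% of each list. Merging the peaks that overlap between lists by at least 1 bp left 33493 regions of the 221805 in the whole genome, of which 11353 lie on 5A, 11034 on 5B and 11106 on 5D.

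The peaks come from ATAC-seq, an assay in which a transposase tags DNA that is free of tightly packed nucleosomes, in the wheat (Triticum aestivum) cultivar AiKang58. The labels give 8 libraries, 2 for each tissue, and 1 peak list stands for both libraries of a tissue. Leaves, roots and shoot apices were taken from seedlings at 2 weeks, grown in cycles of 16 h light at 22 °C and 8 h dark at 19 °C. Axillary buds 1.0 to 2.0 cm long were taken at 6 weeks, from plants kept for 30 days at 4 °C. The labels give the same light and dark cycles for these plants. Between the buds and the other 3 tissues, the effects of tissue, age and cold cannot be told apart. All groups share the cultivar, and no group carries a transgene or mutation in the labels.

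The lists hold peak positions only, with no height, score or read count. No spread between replicates could therefore be computed, and the intervals below cover counting error over peaks only. The sequencing depth is unknown: a longer list may reflect deeper sequencing, and the lack of a peak does not show that chromatin was closed. In these bulk tissues, fewer cells of a type and lower accessibility per cell cannot be told apart. Marker genes could not be used to check the tissue labels, since no annotation on the build of the peaks was used here.

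As background, bread wheat is hexaploid, and most of its genes exist as a triad of homoeologues on the A, B and D subgenomes. Accessible regions mark mainly promoters and distal regulatory elements, and wheat chromosomes carry genes more densely towards their ends than around the centromere. The group 5 chromosomes have a short and a much longer arm. They are known for the vernalization gene VRN1, which promotes flowering after cold, and for the Ph1 locus of 5B, which restricts meiotic pairing to homologues. The long arm of 5A exchanged its end with chromosome 4A in wheat ancestry, so equal shares of length near the end of 5A need not hold homoeologous sequence.

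Chromosome 5D carried more peaks per Mb than 5A and 5B in every tissue, an order of the D chromosome above the A and B chromosomes that all 7 groups had. On 5A the density was 9.08 peaks per Mb in leaf, 8.47 in root, 9.90 in shoot apex and 8.78 in axillary bud. On 5B it was 8.65, 8.29, 9.06 and 8.54 in the same order, and on 5D 10.9, 10.5, 11.6 and 10.8. The shoot apex list was the densest and the root list the sparsest on all 3 chromosomes, and the ranges of 5D and of the other two homoeologues did not overlap. The numbers of peaks were close to each other (5910 to 7026 on 5A and 5B, and 5943 to 6563 on 5D), while the chromosomes differed in length, at 709.7 Mb for 5A, 713.0 Mb for 5B and 566.1 Mb for 5D up to the end of the last peak.

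In merged regions, 5D held 19.6 per Mb, 5A 16.0 and 5B 15.5. The ratio of 5D to 5A was 1.23 (95% interval 1.19 to 1.26), and that of 5D to 5B was 1.27 (1.23 to 1.30). The ratio of 5A to 5B was smaller, at 1.03 (1.007 to 1.06). Within single tissues the ratio was 1.17 to 1.24 for 5D to 5A and 1.26 to 1.28 for 5D to 5B. Among the 7 groups the ratio of the D to the A chromosome was lowest in group 5 in leaf and shoot apex. It was at rank 6 in root and in merged regions, and at rank 4 in axillary bud. The excess of 5A over 5B was 1.09 (1.06 to 1.13) in shoot apex and 1.05 (1.014 to 1.09) in leaf. In root it was 1.02 (0.986 to 1.06) and in axillary bud 1.03 (0.992 to 1.06), where the counting interval includes equal density. Merged regions covered 1.33% of 5A, 1.25% of 5B and 1.66% of 5D.

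The share of each list that falls on a homoeologue was nearly even, apart from the shoot apex and root shares of 5A. Chromosome 5A took 5.32% of shoot apex peaks, against 5.24% of leaf, 5.03% of root and 5.10% of axillary bud peaks. The shoot apex share was 3.88% above the mean of the other 3 lists, the second highest such value of the 21 chromosomes. The root share differed from the mean of its others by -3.61%, at rank 17 of the 21. On 5B and 5D these differences lay between -1.80% and 1.39%.

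Along all 3 chromosomes a fairly dense start was followed by a sparse stretch, and peaks became dense towards the end of the long arm. The first 5% of the length held 21.4 merged regions per Mb on 5A, 18.9 on 5B and 22.1 on 5D, above the means of the chromosomes. The first 20% of the length held 11.8 merged regions per Mb on 5A, 12.2 on 5B and 15.1 on 5D. The last 20% held 32.7, 28.1 and 37.9 per Mb. The middle 60% held 11.8, 12.4 and 15.03 per Mb. The first 20% was thus about as dense as the middle, whereas the last 20% was more than 2-fold denser on all 3.

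**Figure D1:**
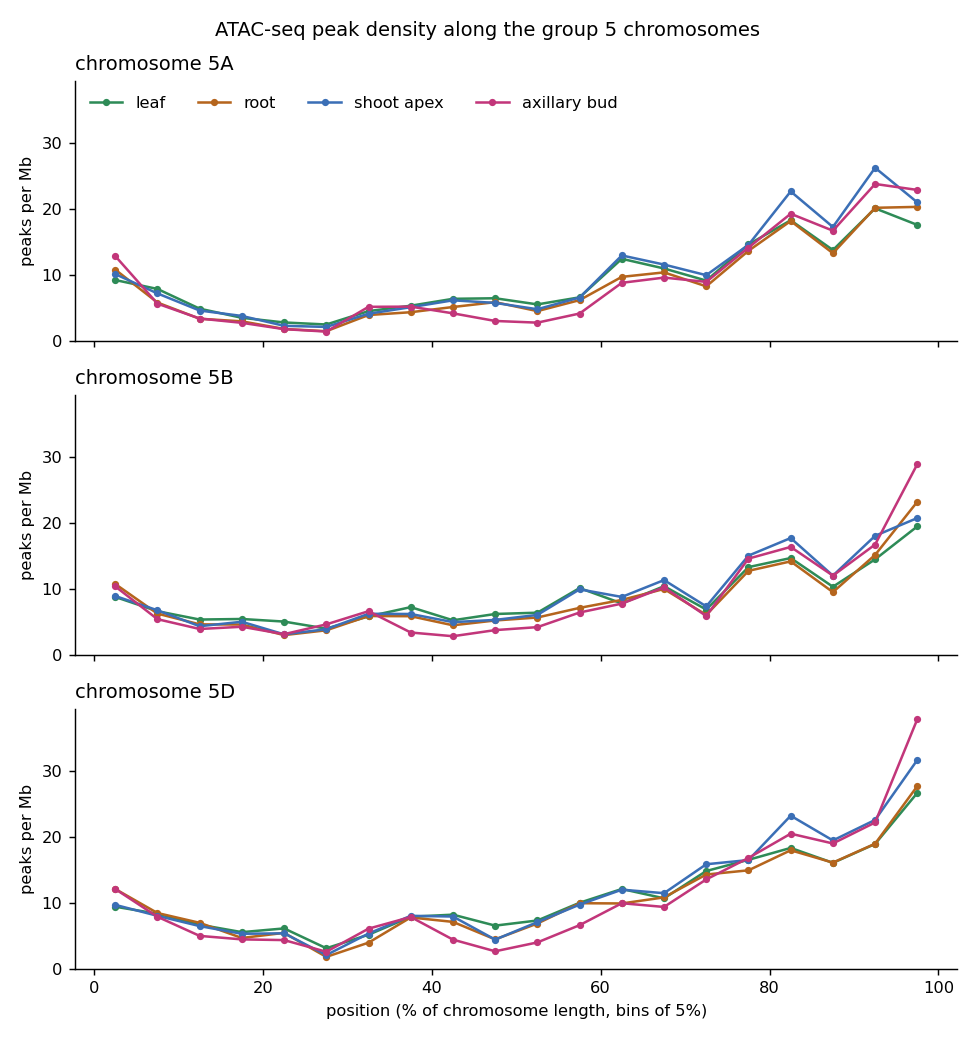
Peaks per Mb in bins of 5% of chromosome length (x axis, position in % of length) for leaf, root, shoot apex and axillary bud on 5A, 5B and 5D; each point is 1 bin of 1 list. All 4 tissues rise from 1.38 to 6.11 peaks per Mb at 20% to 30% of the length to 17.5 to 37.8 in the last 5%.

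Among the 7 homoeologous groups, group 5 had the smallest share of peaks in the outer 20% at both ends together. That share was 50.6% in leaf, 54.2% in root, 54.3% in shoot apex and 59.2% in axillary bud. The lowest values of the other 6 groups were 55.5%, 60.8%, 59.0% and 64.96%. The axillary bud list had the largest distal share and the leaf list the smallest, and group 5 lay below every other group in all 4 lists.

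At the 2 ends taken apart, group 5 was low in the first 20% of the length and not in the last 20%. The first 20% of the length held 14.2% of leaf, 14.8% of root, 13.1% of shoot apex and 13.8% of axillary bud peaks. The other 6 groups ranged from 15.6% to 28.3% in leaf, 16.6% to 31.0% in root, 14.2% to 31.0% in shoot apex and 15.1% to 33.8% in axillary bud. The last 20% held 36.3%, 39.4%, 41.2% and 45.3%, which placed group 5 at rank 2 or 3 of the 7. The pattern was not limited to group 5. Group 1 gave the lower end of each range for the first 20%, and ranked 1 in the last 20% in all 4 lists. Chromosome 1B had 4.26% to 6.46% of its peaks in the first 20%, below 5A, 5B and 5D. Peaks per Mb over the whole length of group 5 were the highest of the 7 groups in leaf (9.45) and axillary bud (9.28). They were second highest in root (8.98) and shoot apex (10.1). With 1 group set against 6, no exact permutation test can give a p below 0.143, so these ranks are descriptions.

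The single chromosomes were also ranked within their subgenomes. In the middle 60% of the length 5A, 5B and 5D each had more merged regions per Mb than the other 6 chromosomes of their subgenome. Those others ranged from 6.65 to 9.42 per Mb in the A, 8.03 to 10.3 in the B and 8.74 to 12.9 in the D subgenome. In the first 20% 5A and 5D were the lowest of their subgenome, and 5B was the second lowest. In the last 20% all 3 were at rank 2 of 7. Nearer the end 5A, 5B and 5D were at ranks 6, 3 and 4 in the last 5%. In the last 2.5% the ranks were 6, 2 and 6.

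**Figure D2:**
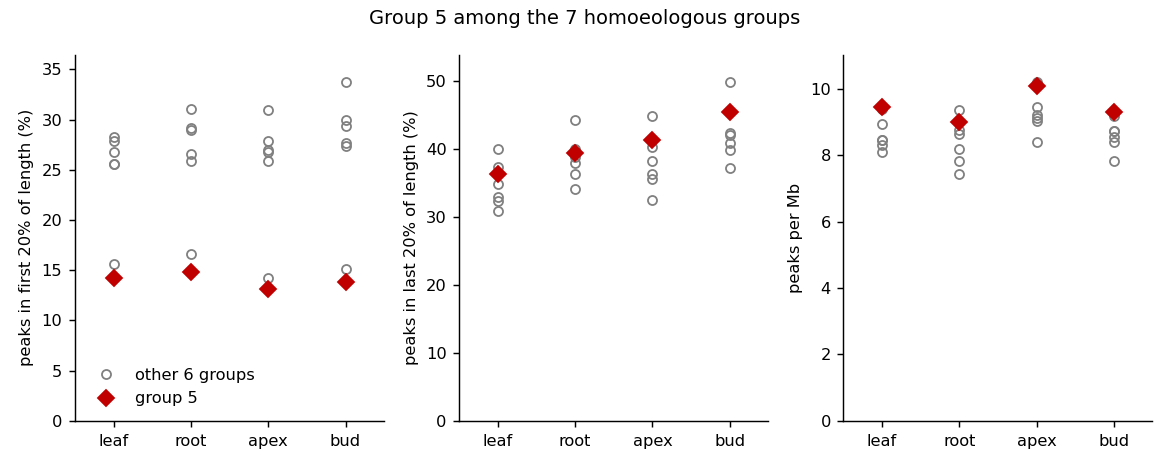
Share of peaks in the first 20% and in the last 20% of chromosome length, and peaks per Mb, for group 5 (filled diamonds) and each of the other 6 homoeologous groups (open circles) in each tissue. The group 5 diamonds lie at 13.1% to 14.8% in the first 20%, below all circles, and among the upper 3 values in the last 20%.

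The sparsest 10% of the length lay at 20% to 30% on 5A, 19% to 29% on 5B and 24% to 34% on 5D. It held 267 merged regions on 5A, 491 on 5B and 365 on 5D. These are 3.76, 6.89 and 6.45 regions per Mb, which is 4.25-fold, 2.25-fold and 3.04-fold below the chromosome's mean. The trough was thus deepest on 5A and shallowest on 5B. Its centre lay at 24% to 29% of the length, against 29% to 54% on the chromosomes of the other 6 groups.

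The tissues did not share the trough equally. On 5A all 4 lists had it at 19% to 30%, with 2.51 peaks per Mb in leaf, 1.61 in root, 2.17 in shoot apex and 1.55 in axillary bud. On 5B the leaf, root and shoot apex lists were sparsest at 19% to 29%, and the axillary bud list at 35% to 45% (3.09 peaks per Mb). On 5D the same 3 lists were sparsest at 24% to 34%, and the axillary bud list at 42% to 52% (2.83 peaks per Mb). At 45% to 50% of 5D the axillary bud density was 2.65 peaks per Mb, while leaf had 6.54, root 4.45 and shoot apex 4.42.

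At equal shares of length the 3 homoeologues had similar profiles. Over 20 bins of 5% the merged densities correlated with Pearson's r of 0.907 between 5A and 5B, 0.916 between 5A and 5D and 0.958 between 5B and 5D, and over 100 bins of 1% with 0.783, 0.819 and 0.875. These values describe bins that share the rise towards the chromosome end. Without the last 10% of the length, r over the bins of 5% was 0.954, 0.942 and 0.895 in the same order of pairs. Which pair was most alike thus depended on the chromosome end. Among the 7 groups the whole-length values over 20 bins ranked 4, 6 and 4. In each bin the density of a homoeologue was then divided by the mean of the other two, and the 2 highest and 2 lowest bins of each are given here.

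Chromosome 5A was lowest against its counterparts at 20% to 25%, with 4.03 merged regions per Mb against 6.82 on 5B and 10.5 on 5D, a ratio of 0.467. The neighbouring bin at 25% to 30% followed with a ratio of 0.570. The low value at 20% to 25% appeared in all 4 lists, from 0.422 in root to 0.533 in shoot apex. The highest bins of 5A were 90% to 95%, at 1.25, and 60% to 65%, at 1.18. From 90% to 100% 5A changed from above to below its counterparts: in the last 5% it held 35.5 regions per Mb, against 42.4 on 5B and 54.6 on 5D, a ratio of 0.731. That ratio was 0.761 in leaf, 0.797 in root, 0.800 in shoot apex and 0.685 in axillary bud.

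Chromosome 5B was highest against its counterparts at 25% to 30%, with 7.38 regions per Mb against 3.49 on 5A and 4.88 on 5D, a ratio of 1.76. This excess was larger in axillary bud (2.32) and root (2.29) than in shoot apex (1.86) and leaf (1.42). The bin at 30% to 35% was next, at 1.26. The lowest bins of 5B lay in the long arm, at 70% to 75% with a ratio of 0.610 and at 85% to 90% with 0.688.

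Chromosome 5D was highest at 20% to 25%, with a ratio of 1.93, and at 70% to 75%, with 1.81. At 70% to 75% it held 25.5 regions per Mb, against 15.6 on 5A and 12.5 on 5B. There the ratio was 1.86 in leaf, 2.00 in root, 1.84 in shoot apex and 1.83 in axillary bud, so the 4 lists differed little. The lowest ratios of 5D were 0.897 at 25% to 30% and 0.901 at 45% to 50%. Between neighbouring bins at 20% to 25% and 25% to 30%, 5D fell from 10.5 to 4.88 regions per Mb, whereas 5A went from 4.03 to 3.49 and 5B from 6.82 to 7.38.

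**Figure D3:**
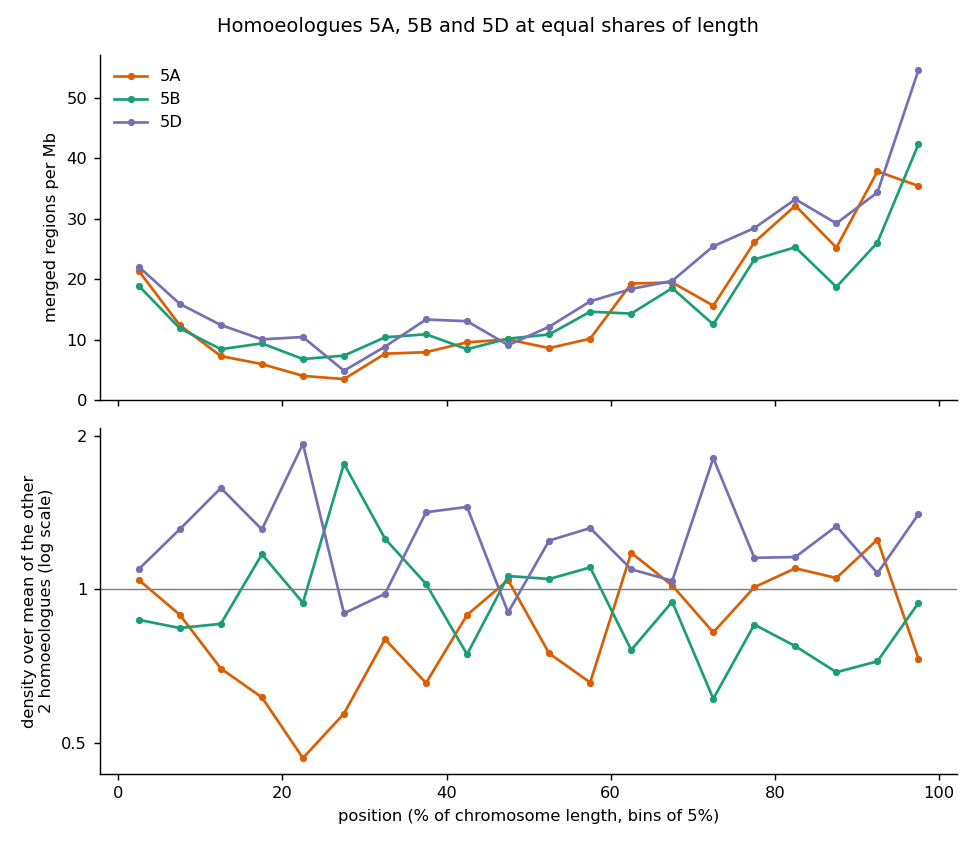
Upper panel: merged regions per Mb in bins of 5% of length for 5A, 5B and 5D. Lower panel: the density of each divided by the mean of the other two homoeologues (log axis); 5A reaches its lowest ratio, 0.467, and 5D its highest, 1.93, in the same bin at 20% to 25% of the length.

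Each merged region was classed by the tissues with a peak in it. All 4 tissues shared 6688 of the 33493 group 5 regions (19.97%, 95% interval 19.5% to 20.4%), and 15127 (45.2%) had a peak in a single tissue. Where peaks of a tissue had to span 50% of a region, the regions of all 4 tissues fell to 7.56%, below each class of a single tissue (11.2% to 17.5%). Axillary bud alone accounted for 4842 regions (14.5%), root alone for 3824 (11.4%), leaf alone for 3460 (10.3%) and shoot apex alone for 3001 (8.96%). Regions of 2 tissues numbered 6485 and those of 3 tissues 5193. Over all 21 chromosomes the shares were 19.7% for all 4 tissues, and 14.3%, 11.9%, 10.1% and 8.99% for bud, root, leaf and shoot apex alone, so the mix of group 5 was close to that of the genome. The shoot apex, with the longest list, had the fewest regions of its own. With only peaks of at least the median width (507 bp), leaf had the fewest (8.41%, against 10.4% for shoot apex). The rarest classes paired root with axillary bud: root and bud shared 462 regions without the other two (1.38%, the lowest share of the 7 groups), and leaf, root and bud shared 371 (1.11%).

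The 3 homoeologues had nearly the same mix, with 5A and 5B at opposite ends for the shoot apex. Shoot apex alone made up 9.72% (9.19% to 10.3%) of 5A regions, 8.12% (7.63% to 8.64%) of 5B regions and 9.01% (8.49% to 9.56%) of 5D regions. The intervals of 5A and 5B do not overlap, and the 2 chromosomes ranked second and 19th of 21. Root alone made up 10.5% (9.91% to 11.0%) on 5A, 11.9% (11.3% to 12.5%) on 5B and 11.9% (11.3% to 12.6%) on 5D. Regions of leaf, root and bud without the shoot apex were at 0.942% on 5A, the lowest of the 21 chromosomes, with 1.21% on 5B and 1.17% on 5D. Regions of all 4 tissues were at 20.4%, 19.7% and 19.7%, with overlapping intervals.

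The mix changed along the chromosomes. Leaf alone made up 15.8% (14.8% to 16.8%) of regions at 20% to 50% of the length and 7.17% (6.74% to 7.63%) in the last 20%. Axillary bud alone went the other way, with 11.5% (10.7% to 12.4%) at 20% to 50%, 17.0% (16.4% to 17.7%) in the last 20% and 20.9% (19.2% to 22.7%) in the first 5%. Regions of all 4 tissues rose from 15.6% (14.6% to 16.6%) in the first 20% to 22.7% (22.0% to 23.4%) in the last 20%. Between these parts of the length, the shares of leaf and bud regions changed in the same direction over the other 6 groups. There leaf alone made up 15.2% at 20% to 50% of the length and 7.33% in the last 20%, and bud alone 11.6%, 16.9% in the last 20% and 20.95% in the first 5%.

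Within the bins of 5%, leaf alone reached its highest shares at 20% to 25% of 5B (30.0%), 45% to 50% of 5D (23.3%) and 25% to 30% of 5A (21.8%). Bud alone had a local maximum between 25% and 40% on all 3 homoeologues, at 19.0% on 5A (30% to 35%), 19.4% on 5B (25% to 30%) and 21.5% on 5D (30% to 35%). Past it, at 40% to 60% of the length, bud alone fell to between 6.59% and 10.5% on the 3 chromosomes. These bins were picked after their values were seen.

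Some other shares had intervals apart from those of the other 6 groups. In the first 5% of the length root alone made up 17.4% (15.9% to 19.1%) of group 5 regions, against 13.4% (13.0% to 13.9%) over the other 6 groups. In the last 20% it made up 10.1% (9.59% to 10.6%), against 12.6% (12.3% to 12.8%). Regions of all 4 tissues made up 15.6% in the first 20%, against 18.3% (17.9% to 18.6%) in the others, and 22.7% in the last 20%, against 20.2% (19.9% to 20.5%). Regions are not independent replicates, and no test of these differences was available beyond their counting intervals.

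**Figure D4:**
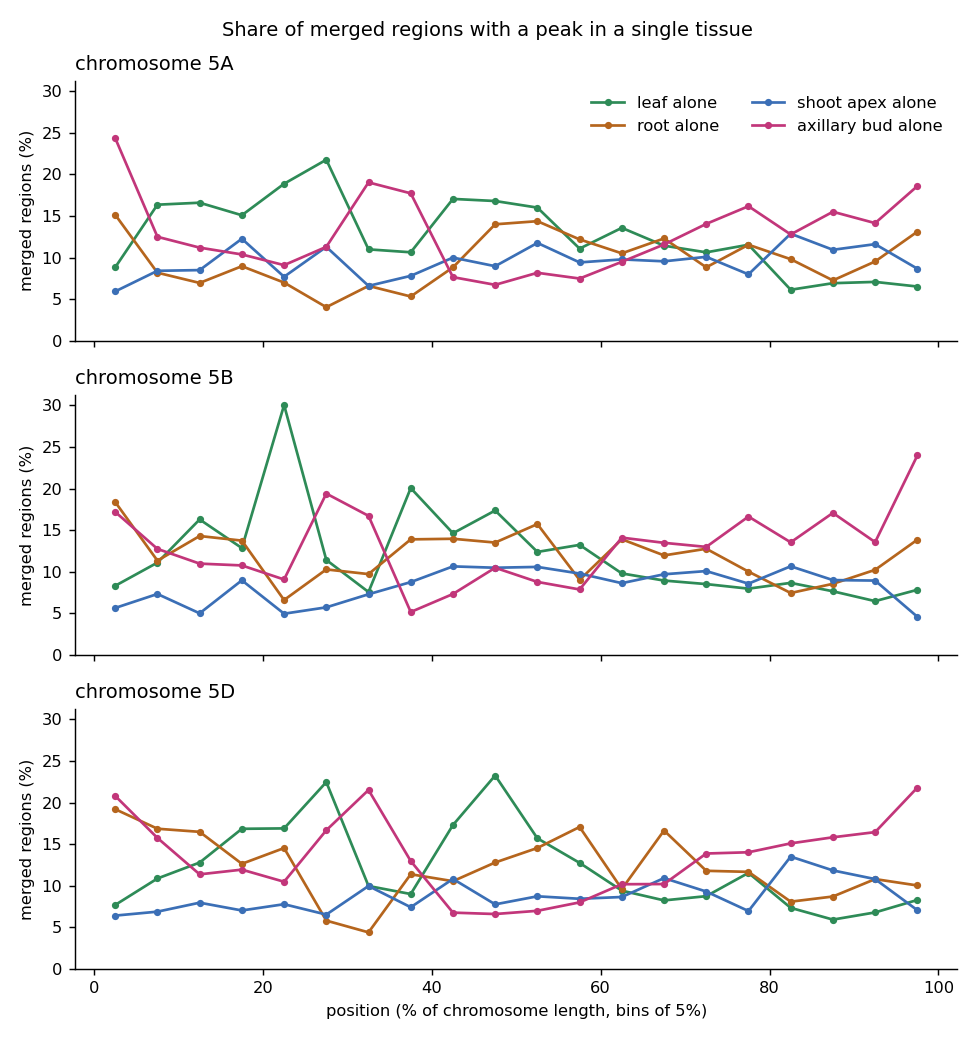
Share of merged regions (y axis, %) with a peak in leaf, root, shoot apex or axillary bud alone, in bins of 5% of the length of 5A, 5B and 5D. Leaf alone peaks in the interior, at up to 30.0% on 5B, and axillary bud alone at both ends and again between 25% and 40% of the length.

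Peaks on the 3 homoeologues had similar widths, and wide peaks were more frequent near the ends. Median widths were 475 to 550 bp over the 12 combinations of chromosome and tissue. Peaks of at least 2000 bp made up 4.13% of leaf, 2.90% of root, 5.18% of shoot apex and 5.18% of axillary bud peaks on 5A. The values were 3.47%, 3.15%, 4.85% and 4.88% on 5B, and 4.49%, 3.84%, 5.59% and 5.42% on 5D. Wide peaks were thus rarest in root on each homoeologue, and 5D had the highest share in every tissue. Over the 3 chromosomes together wide peaks made up 4.76% (4.35% to 5.20%) of leaf peaks in the outer 20% at both ends and 3.28% (2.94% to 3.67%) in the middle 60%. For root the values were 3.85% and 2.63%, for shoot apex 6.23% and 4.00%, and for axillary bud 6.09% and 3.82%.

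Width went with the number of tissues. Regions of all 4 tissues had a median width of 1302 bp on 5A, 1230.5 bp on 5B and 1350 bp on 5D, against 350 bp, 350 bp and 375 bp for regions of a single tissue. A merged region spans the union of its peaks, so its width grows with their number by construction. Regions of all 4 tissues were 19.7% to 20.4% of regions and 39.0% to 41.0% of the bases covered.

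The widest region of all 4 tissues on each homoeologue lay in the last 5% of its length. Coordinates are counted from 1 on the build of the deposited lists, which the sources used here do not give, and no gene was assigned to them. On 5B it was chr5B:680913424-680926634 (13211 bp), where leaf peaks covered 11250 bp, root 11996, shoot apex 12800 and axillary bud 12500. On 5D it was chr5D:539213105-539226199 (13095 bp), with 12400, 11800, 12075 and 13050 bp in the same order. On 5A it was chr5A:696923875-696934774 (10900 bp), with 8900, 5610, 10900 and 10617 bp. Each tissue covered most of the region on 5B and 5D, while root covered the least on 5A and 5D.

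The widest regions of a single tissue were shorter. The widest of root alone was chr5A:655043053-655047827 (4775 bp), and the widest of leaf alone was chr5B:65240005-65244445 (4441 bp). The widest of shoot apex alone was chr5A:584714373-584717972 (3600 bp), and the widest of axillary bud alone was chr5A:2649526-2652475 (2950 bp). The last of these lies inside a block of bud regions described further on.

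Group 5 had the lowest count of long stretches without any peak of the 7 groups, but not a clearly lower share of its length than group 7. Stretches of at least 1 Mb without a merged region numbered 45 on 5A, 30 on 5B and 19 on 5D, the last being the lowest count of the 21 chromosomes. With peaks of at least the median width they numbered 97, 95 and 51, and where only regions of 2 or more tissues ended a gap 75, 72 and 51, so 5A and 5B then had nearly the same count. The 45, 30 and 19 gaps of the main setting added up to 62.5 Mb, 36.4 Mb and 25.2 Mb, or 8.81%, 5.11% and 4.45% of the length. Counted from the highest share, 5A ranked 5 of the 7 A chromosomes and 10 of the 21. By the same share 5B and 5D each ranked 7 of 7 in their subgenome. The total of 94 was the lowest of the 7 groups, which otherwise ranged from 103 to 166. It was also the lowest when only peaks of at least the median width counted (243, against 245 to 312). The same held when only regions of 2 or more tissues ended a gap (198, against 226 to 264). These counts are not scaled by length. In the main setting gaps took 124.1 of 1988.8 Mb in group 5 and 132.2 of 2126.0 Mb in group 7, nearly the same share.

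At 20% to 60% of the length lay 25 of 45 gaps on 5A, 20 of 30 on 5B and 14 of 19 on 5D. The first 20% held 12, 6 and 3. On 5A gaps were thus about as frequent for the length there as at 20% to 60%. In the last 20% lay 2 of the 94. Within single lists the counts were higher. On 5A there were 73 gaps in leaf, 94 in root, 79 in shoot apex and 97 in axillary bud. On 5B there were 68, 75, 84 and 95, and on 5D 40, 55, 53 and 53. Axillary bud gaps added up to 24.0% of the length of 5A, 18.8% of 5B and 13.4% of 5D, while leaf gaps added up to 16.1%, 12.3% and 10.03%.

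The longest gap of the group was chr5D:143856637-147142536 (3.29 Mb), at 25.4% of the length, and no other chromosome of the D subgenome had a longer one. The axillary bud list had the same gap, and those of leaf (4.13 Mb), root (4.05 Mb) and shoot apex (6.17 Mb) were longer. The second on 5D, chr5D:148230457-149915823 (1.69 Mb), followed after a short stretch with peaks, and no shoot apex peak lay between the 2 gaps. This is the place where the density of 5D dropped between neighbouring bins.

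On 5A the 2 longest gaps were chr5A:517239178-519796037 (2.56 Mb), at 72.9% of the length in the long arm, and chr5A:253118004-255610929 (2.49 Mb), at 35.7%. The latter adjoined a gap of 2.33 Mb, from which a single merged region separated it. In root and shoot apex the stretch was 1 gap of 5.63 Mb, and in axillary bud 1 of 4.82 Mb. The longest gap of any list on 5A was one of 6.01 Mb in axillary bud, chr5A:368879097-374885763, at 52.0% of the length. On 5B the 2 longest were chr5B:38795699-40785229 (1.99 Mb), at 5.44%, and chr5B:198421738-200188468 (1.77 Mb), at 27.8%, and the longest gap of 5B was the shortest such gap of the 7 B chromosomes.

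**Figure D5:**
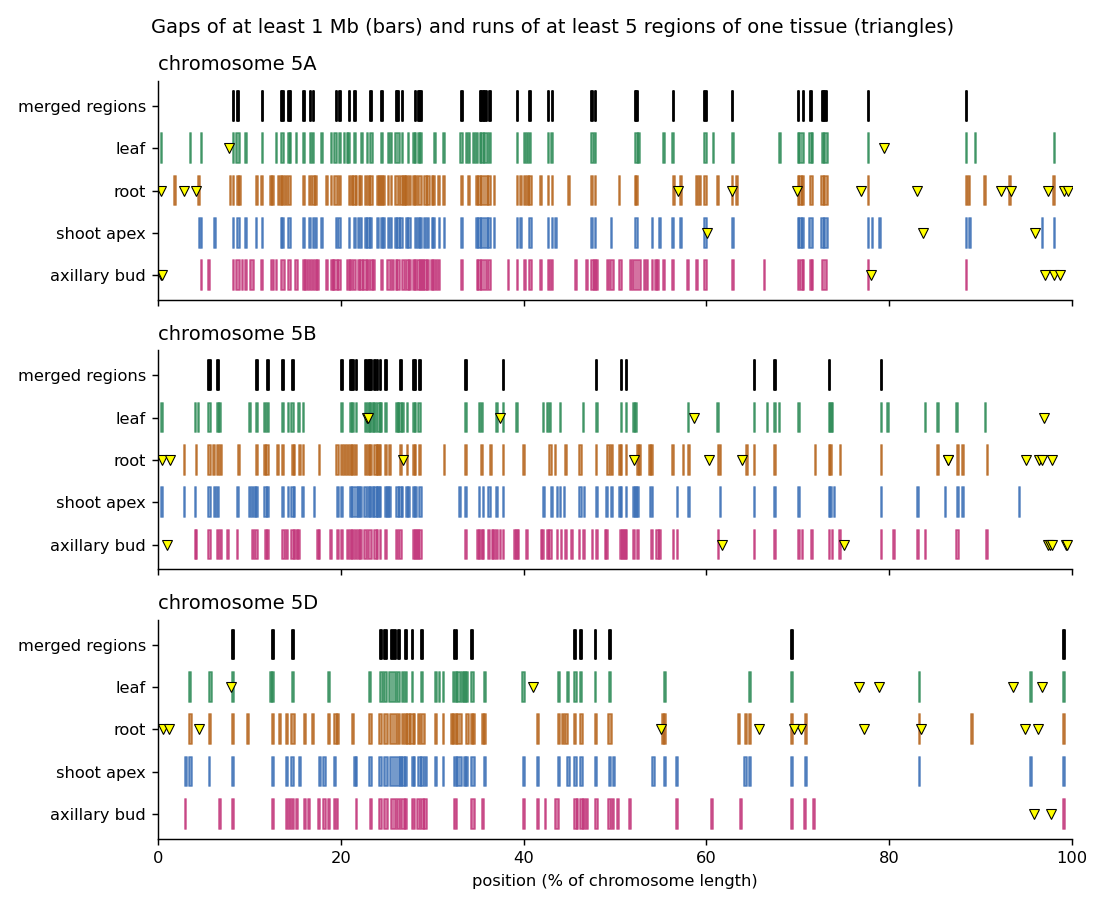
Bars mark stretches of at least 1 Mb without a merged region (black) or without a peak of one list (colours), and triangles mark runs of at least 5 neighbouring regions that each have a peak in the same single tissue, by position in % of length. The 45, 30 and 19 black bars of 5A, 5B and 5D lie mainly in the first 60% of the length, and the triangles mainly near the ends and in the long arm.

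Windows of 1 Mb with at least 20 peaks over the 4 lists were used to find places where one tissue departed from the others. Peak counts were scaled by list size, and a window was called where a tissue stood at least 2-fold above, or at or below 0.5 times, the mean of the other 3. Of 1263 windows tested in group 5, axillary bud was higher in 17, against 1.5% of windows over all 21 chromosomes, and lower in 119, against 8.87%. As shares of the windows tested these are 1.35% and 9.42%. Leaf was higher in 30 windows (2.38%, against 2.24%) and lower in 30 (2.38%, against 2.77%). Root was higher in 30 (2.38%, against 2.7%) and lower in 55 (4.35%, against 4.87%). Shoot apex was higher in 5 (0.396%, against 0.639%) and lower in 27 (2.14%, against 2.09%). All these shares lay near the background of the whole genome, so their number is no result about group 5.

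Their positions were uneven, and so was the split of some classes between homoeologues. Of the 17 windows with more bud peaks, 13 lay in the outer 20% at either end, and of the 119 with fewer, 17 did. Over the other 6 groups the counts were 87 of 110 and 152 of 631. For leaf the order was opposite, with 8 of 30 higher and 24 of 30 lower windows in the outer parts, and 34 of 159 and 174 of 204 over the other 6 groups. The split by position was thus not limited to group 5. Windows tested numbered 413 on 5A, 451 on 5B and 399 on 5D. Windows higher in bud numbered 10 (2.42%), 5 (1.11%) and 2 (0.501%), against 1.5% over all 21 chromosomes. Those higher in leaf numbered 5 (1.21%), 11 (2.44%) and 14 (3.51%), against 2.24%. For root they numbered 4 (0.969%), 12 (2.66%) and 14 (3.51%), against 2.7%. Windows lower in a tissue were split more evenly, as in bud with 36 (8.72%), 44 (9.76%) and 39 (9.77%), against 8.87%.

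The window with the highest axillary bud ratio was chr5A:2000001-3000000, with 6 leaf, 13 root, 13 shoot apex and 50 axillary bud peaks and a scaled ratio of 4.79. The highest leaf ratio, 4.91, was in chr5B:163000001-164000000, with 19 leaf, 2 root, 7 shoot apex and 3 bud peaks. This window lies in the bin of 5B where leaf alone was most frequent. The highest root ratio, 4.30, was in chr5B:2000001-3000000, with 2 leaf, 14 root, 0 shoot apex and 8 bud peaks, and this was also the lowest window for shoot apex. Shoot apex was highest in chr5D:80000001-81000000, with 1 leaf, 7 root, 10 shoot apex and 2 bud peaks, a ratio of 2.73, and leaf was lowest there, at 0.162.

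The lowest windows of the other tissues lay on 5D. Axillary bud had 0 peaks in chr5D:247000001-248000000, where leaf had 8, root 6 and shoot apex 8, and in chr5D:292000001-293000000, where they had 6, 10 and 6. Root had 0 peaks in chr5D:164000001-165000000, where leaf had 9, shoot apex 5 and bud 7. With counts this small, a few peaks decide such a ratio.

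The windows with most merged regions all lay past 96% of the length. They were chr5A:688000001-689000000 with 81 regions, chr5B:691000001-692000000 with 86 and chr5D:556000001-557000000 with 86. The 5A window had 40 leaf, 62 root, 57 shoot apex and 50 bud peaks, and the 5D window 39, 43, 54 and 50. The 5B window differed in its mix, with 66 leaf, 35 root, 14 shoot apex and 45 bud peaks. There 31 regions belonged to leaf alone, 20 to bud alone, 7 to root alone and 0 to shoot apex alone, and 7 were shared by all 4 tissues. It was also among the 27 windows where the shoot apex was lower. The next window on 5B had 15 leaf peaks, and the one before it 17, so the excess of leaf peaks ended within 1 Mb on both sides.

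A block of one tissue was defined as a run of at least 5 neighbouring merged regions that each have a peak in the same single tissue. Group 5 held 36 root runs, 16 axillary bud runs, 13 leaf runs and 3 shoot apex runs. Root had 13 on 5A, 12 on 5B and 11 on 5D. Bud had 6, 8 and 2, leaf had 2, 5 and 6, and all 3 shoot apex runs lay on 5A. Runs held 5.65% of the regions of root alone (6.47% over all 21 chromosomes), 2.60% of bud alone (2.18%), 2.02% of leaf alone (2.57%) and 0.533% of shoot apex alone (0.542%), shares close to the background of the genome. Root was the tissue with most runs although bud had more regions of its own. The shares held by runs differed between 5A, 5B and 5D. In that order they were 4.55%, 2.67% and 0.614% for bud alone, and 1.02%, 2.26% and 2.83% for leaf alone. For root alone they were 6.23%, 5.42% and 5.35%, and for shoot apex alone 1.45%, 0% and 0%.

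The longest block lay near the start of 5A. From chr5A:2365143 to chr5A:2880527, a span of 515 kb, 34 neighbouring regions each had an axillary bud peak and no other, with a median width of 541.5 bp. This was the longest run of any tissue on the 21 chromosomes. The next longest were 2 of 16 regions, one of them also in axillary bud on 5A, at chr5A:3058148-3165665, and the other in root on 7B. From the start of the first to the end of the second bud run on 5A, over 800.5 kb, there were 58 regions, of which 54 belonged to bud alone. This stretch held 0 leaf, 2 root, 3 shoot apex and 56 axillary bud peaks.

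The same share of length on the homoeologues looked different. On 5B it spanned 804.3 kb and held 16 regions, with 0 leaf, 13 root, 0 shoot apex and 5 bud peaks, of which 11 regions belonged to root alone. On 5D it spanned 638.5 kb and held 11 regions, with 5 leaf, 4 root, 4 shoot apex and 5 bud peaks. The stretch was thus bud-rich on 5A, root-rich on 5B and mixed on 5D. Without a genome on this build it is not known whether these stretches hold homoeologous sequence. The run on 5A shortened to 18 regions with only peaks of at least the median width (507 bp). It shortened to 27 with peaks up to 500 bp apart merged, and to 30 with lists cut to equal size.

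Over the first 1% of length, which includes this stretch, 5A had 59 leaf, 87 root, 78 shoot apex and 173 bud peaks, and 107 of its 231 regions belonged to bud alone. Without the stretch there were 59, 85, 75 and 117 peaks, and 53 of 173 regions belonged to bud alone. On 5B the counts were 43, 73, 49 and 67, with 28 of 128 regions in bud alone and 33 in root alone. On 5D they were 41, 88, 50 and 79, with 39 of 153 regions in bud alone and 44 in root alone. Root thus led on 5B and 5D and bud on 5A, with and without the stretch, and leaf was lowest on all 3.

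The longest root runs had 9 regions each, at chr5B:2792482-3430971 over 638.5 kb and at chr5D:537159003-537228967 over 70.0 kb. A root run of 8 lay at chr5D:2793380-3076834, near the start of 5D. The longest leaf runs had 6 regions, and there were 5 of them: 2 on 5A, 1 on 5B and 2 on 5D. The most compact, chr5A:563833758-563844320 and chr5A:55018299-55028891, spanned about 10.6 kb each. The longest shoot apex run also had 6 regions, at chr5A:594135114-594143875 over 8.76 kb. The span of runs varied widely within a tissue, from 10.6 to 1217 kb in root (median 165 kb), 9.24 to 984 kb in bud (median 99.2 kb), 6.58 to 410 kb in leaf (median 14.0 kb) and 5.64 to 8.76 kb in shoot apex.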

How the data were processed

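ATAC-seq peak positions were analysed from 4 lists, 1 for each tissue and its 2 libraries. The authors deposited chromosome, start and end only, with no score or read count. Trimmomatic 0.36, Bowtie2, MACS2 and bedtools were used, per the submitters' processing notes. The peak threshold, the build and whether replicates were pooled are not stated in the sources used here. Depth is unknown.

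Group 5 peaks were selected by chromosome name, and the members and lists were chosen with earlier results of these data known. Starts were converted to count from 1. Chromosome length was taken up to the last peak of any list. Peaks overlapping by 1 bp were merged with Python 3.11.15, numpy 2.4.6 and pandas 2.3.3, and a peak was placed by its midpoint. Shares carry 95% Wilson intervals and density ratios exact binomial intervals (scipy 1.17.1), which cover counting error only. The code was tested on simulated data. Within each subgenome, the extremes of the 7 chromosomes were checked with Dixon's rule in 48 comparisons, and no chromosome of group 5 passed. Chance passes about 1 in 20.

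Named regions are, for each chromosome, the widest region of all 4 tissues, the 2 longest gaps and the densest 1 Mb window; for each tissue, the widest region, the longest run and the highest and lowest called window; and the 2 highest and 2 lowest bins of each homoeologue. Others were chosen after their values were seen. Among them are the shoot apex and root shares of 5A, the gaps of single lists and the one that adjoins on 5A. The first 5% and 1% of length, the second bud run and its counterparts on 5B and 5D were also chosen so. The same holds for the root run of 8 and the windows beside the densest one on 5B. It also holds for the last 5% and 2.5% of length, the bud density at 45% to 50% of 5D, and the leaf, root and bud class.

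No sequence or gene name is given, since no genome or annotation on the build of the peaks was used here.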

Additional observations from a re-analysis of the deposited data

How the results depend on the processing

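No paired analysis was possible because each list stands for both libraries of its tissue. For that reason no alternative without one replicate could be run either. Of 137 alternative values, 65 stayed within their counting interval or within 1.5 times the main count, and 72 moved. A change of direction was defined only for density ratios whose main interval excluded equal density, and 0 of these reversed. All other values could only be classed as stayed or moved. The cause of these moves was not tested. Depth is unknown and limits every statement on absent peaks.

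Counted as bases covered per Mb, the ratio of 5D to 5B was 1.33 and that of 5A to 5B 1.07 in merged regions. In single lists it was 1.30 for 5D to 5A in root, 1.34, 1.33, 1.33 and 1.32 for 5D to 5B in leaf, root, shoot apex and axillary bud, and 1.09 and 1.14 for 5A to 5B in leaf and shoot apex. With only peaks of at least the median width (507 bp), the ratio of 5D to 5B was 1.33 in leaf and 1.32 in root, and that of 5A to 5B 1.11 in leaf and 1.07 in bud. The distal share was then 51.4%, 56.6%, 55.6% and 61.2%, and the share in the first 20% was 11.9%, 12.9%, 10.8% and 12.3%, in the order leaf, root, shoot apex and bud. Gaps of at least 1 Mb then numbered 97, 95 and 51 on 5A, 5B and 5D, and 75, 72 and 51 where only regions of 2 or more tissues ended a gap.

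Regions of all 4 tissues were 23.1% with peaks up to 500 bp apart merged. They were 7.56% where peaks of a tissue had to span 50% of a region, and 17.7% with only peaks of at least the median width. Leaf alone was 9.39%, 12.0% and 8.41% under these settings, shoot apex alone 7.45%, 11.2% and 10.4%, and bud alone 12.4%, 17.5% and 14.0%. Root alone was 13.3% with the 50% span and 12.0% with only peaks of at least the median width. In lists cut to equal size root alone was 13.4% and shoot apex alone 7.56%.

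At a ratio of 1.5 the called windows rose to 151 higher and 124 lower in leaf, 122 and 175 in root, 47 and 105 in shoot apex, and 112 and 237 in bud. Among windows of 40 or more peaks they fell to 6 and 12 in leaf, 6 and 20 in root, 1 and 6 in shoot apex, and 6 and 25 in bud. In windows moved by 0.5 Mb the shoot apex was higher in 1. Runs of 4 or more regions numbered 37 in leaf, 82 in root, 8 in shoot apex and 43 in bud. With only peaks of at least the median width there were 6, 13, 1 and 8 runs of at least 5. The longest bud run of 5A then had 18 regions. With peaks up to 500 bp apart merged there were 7 runs in leaf, 1 in shoot apex and 9 in bud.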
